A study of Mus musculus with 11 samples.

Results

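Matrix metalloproteinases (MMPs) and their tissue inhibitors (TIMPs) were described in the irradiated apex of the mouse heart through 10 genes, taken by name from the 55414 genes listed: Mmp2, Mmp3, Mmp9, Mmp12, Mmp14, Mmp15, Timp1, Timp2, Timp3 and Timp4. All 10 passed the count filter and were among the 14556 genes tested. The series is bulk poly(A) RNA-seq of the cardiac apex of C57BL/6 mice, and asked how proton radiotherapy at the standard dose rate (S-PRT) and at the ultra-high FLASH dose rate (F-PRT) affect heart tissue. The 4 NR libraries came from hearts that were not irradiated. The 4 S-PRT libraries came from apexes given a single focal dose of 40 Gy of standard proton radiation and collected 2 weeks later, and the 3 F-PRT libraries, numbered 2 to 4 in the titles, from apexes given the same dose in FLASH mode and collected at the same time. All groups carry the C57BL/6 background and no other allele is named. Age is not given in the labels, and no label states whether each library is a separate animal. The p-values therefore rest on library-to-library spread alone, part of which may be technical.

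MMPs are zinc-dependent endopeptidases that cut collagens, elastin, laminin and other matrix proteins. Most are made as inactive proenzymes, some secreted and some anchored in the plasma membrane, and the pro-peptide must be cut or displaced before the enzyme works. TIMPs bind the active site of the enzymes, and in the heart the ratio between both families is studied as a determinant of matrix turnover, fibrosis and chamber remodelling. These are transcript measurements: they show neither the amount of protein nor enzyme activity.

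Libraries held 20758170 to 40136578 expected counts. Levels are given as CPM, counts scaled to library size with TMM factors, except where TPM, which also divides by transcript length, is named. The heart muscle markers Myh6, Tnnt2, Actc1, Myl2, Tnni3, Pln, Ryr2 and Mybpc3 summed to 43340 to 53500 CPM in every library, and Ryr2 alone among them was called, lower in F-PRT. Of the 4 atrial markers, Myl7 and Sln were below the count filter, and the 4 summed to 48.5 to 80.1 CPM in NR, 25.2 to 184 after S-PRT and 97.5 to 198 after F-PRT. Myl4 rose in F-PRT (log2 fold change 1.01 ± 0.25, adjusted p = 0.019), Nppa stood there at 1.17 ± 0.47 (adjusted p = 0.097), and neither passed the test in S-PRT. The part of atrial tissue in the results was not tested. Among 5 p53 response genes examined as a check of irradiation, Cdkn1a, Gdf15, Phlda3 and Eda2r rose in both irradiated groups and Mdm2 did not pass the test in either. In F-PRT, Gdf15 and Eda2r lost the call with the replicate number as a block (adjusted p = 0.079 and 0.078). The S-PRT call of Gdf15 was lost without NR 1 (adjusted p = 0.092), NR 2 (0.094), NR 3 (0.083), NR 4 (0.092), S-PRT 3 (0.096) or S-PRT 4 (0.053), or with the transcript length trend removed (3.10, adjusted p = 0.054), and that of Eda2r without NR 1 (0.052), NR 3 (0.055) or S-PRT 3 (0.059). Long transcripts were relatively more abundant in NR libraries than in F-PRT libraries: the Spearman correlation across genes between transcript length and log2 CPM, centred per gene, lay between 0.34 and 0.42 for NR libraries, between -0.26 and 0.27 for S-PRT and between -0.56 and -0.16 for F-PRT. Members range from the short Timp1, at 855 bases, to the long Timp3 and Mmp15, at 4714 and 5109 bases, and values with the length trend removed are given where a call rests on it. The part of this trend in the results was not otherwise tested.

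Promoter windows of 250 bases before to 50 bases after the annotated start were taken from RefSeq (GRCm38.p6), where 8 of the 10 genes matched, and Mmp2 and Mmp9 did not. The windows printed here are those of the 3 members whose S-PRT libraries did not overlap with NR (Mmp12, Timp1, Timp4; 14.0% of all genes tested did not overlap between these groups) and of Mmp3, also on chromosome 9. Capitals mark matches on either strand to the AP-1 site TGANTCA, the TATA box TATAAA, the GC box GGGCGG and the PEA3 site AGGAAG (complement CTTCCT). The window of Mmp12 is its second annotated one, at chr9:7347124-7347423 on the plus strand, and that of Mmp3 is chr9:7445572-7445871, plus strand. The window of Timp1 is chrX:20869916-20870215, plus strand, and that of Timp4 is chr6:115252156-115252455, minus strand.
Mmp12: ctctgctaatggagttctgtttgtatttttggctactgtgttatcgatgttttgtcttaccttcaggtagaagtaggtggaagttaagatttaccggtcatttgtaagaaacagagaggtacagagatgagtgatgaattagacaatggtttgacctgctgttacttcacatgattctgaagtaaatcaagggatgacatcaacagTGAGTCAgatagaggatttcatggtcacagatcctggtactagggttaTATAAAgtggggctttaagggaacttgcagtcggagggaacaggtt
Mmp3: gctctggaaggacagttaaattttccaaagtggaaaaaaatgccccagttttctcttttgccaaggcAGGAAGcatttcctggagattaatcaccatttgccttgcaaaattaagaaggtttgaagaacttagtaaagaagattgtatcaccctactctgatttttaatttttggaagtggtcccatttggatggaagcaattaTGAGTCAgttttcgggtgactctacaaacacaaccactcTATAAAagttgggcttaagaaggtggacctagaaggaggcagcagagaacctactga
Timp1: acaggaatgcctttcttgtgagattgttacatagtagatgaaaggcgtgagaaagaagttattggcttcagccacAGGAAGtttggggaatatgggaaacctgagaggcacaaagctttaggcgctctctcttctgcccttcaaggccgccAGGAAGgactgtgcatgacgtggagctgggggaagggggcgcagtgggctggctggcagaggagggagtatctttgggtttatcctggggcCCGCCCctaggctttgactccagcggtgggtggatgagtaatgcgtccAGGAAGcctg
Timp4: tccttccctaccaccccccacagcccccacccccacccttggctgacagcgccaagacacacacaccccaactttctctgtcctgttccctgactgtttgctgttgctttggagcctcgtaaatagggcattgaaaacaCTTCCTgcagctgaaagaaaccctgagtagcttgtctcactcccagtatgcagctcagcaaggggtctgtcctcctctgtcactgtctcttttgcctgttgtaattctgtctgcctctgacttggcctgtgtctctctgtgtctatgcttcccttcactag
Mmp12 and Mmp3 each held 1 AP-1 match, 44 and 46 bases before the start, and 1 TATA match. The TATA match of Mmp12 began 4 bases after the annotated start, and that of Mmp3 began 7 bases before it. Timp1 held 1 GC box and 3 PEA3 matches, and Timp4 held 1 PEA3 match. Over 32851 windows of the same length, 7.81% held an AP-1 match, 13.6% a TATA match, 35.7% a GC box and 35.4% a PEA3 match. None of the other 6 matched members held an AP-1 or a TATA match, and the other window of Mmp12 held neither. A match describes letters only and shows no binding.

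Within the group of 10, levels spanned about 2 orders of magnitude on the TPM scale, which is the scale on which different genes can be compared. In NR the order of mean TPM was Timp3 (24.9 ± 6.89, SD, n = 4), Timp2 (24.2 ± 10.7), Mmp15 (18.8 ± 3.35), Mmp2 (12.0 ± 4.37), Timp4 (6.93 ± 2.65), Mmp14 (3.43 ± 1.37), Timp1 (0.913 ± 0.483), Mmp3 (0.735 ± 0.678), Mmp9 (0.34 ± 0.149) and Mmp12 (0.225 ± 0.116). Neighbours in this order overlapped between libraries, except that Mmp14 stood above Timp1 in range (1.98 to 5.13 against 0.42 to 1.42). Timp2 ranked between 1 and 3 in every library, Timp3, Mmp2 and Mmp15 between 1 and 4, Mmp14 at 5 or 6, and Mmp9 at 9 or 10. Timp4 moved most, from rank 5 to rank 9, and Timp1 ranged from 6 to 8 and Mmp12 from 8 to 10.

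In S-PRT against NR, 1 of 10 members was called against a background of 1.29% of all genes tested, and 0.872% of genes were called higher. In F-PRT against NR, 3 of 10 members were called (Mmp12 higher, Timp2 and Timp3 lower) against a background of 19.5%, with 10.8% of genes called higher and 8.67% lower. In S-PRT against NR, 3 members had libraries that did not overlap (Mmp12, Timp1 and Timp4), against 14.0% of all genes tested, and in F-PRT against NR 2 did (Mmp12 and Mmp15), against 31.5%. With the replicate number as a block in S-PRT against NR, 4 of 10 members were called (Mmp12 and Timp1 higher, Timp3 and Timp4 lower), against a background of 9.74% of 14069 genes. The median log2 fold change of the 10 members was 0.08 in S-PRT and -0.15 in F-PRT, against 0.01 and 0.03 for all genes tested.

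**Figure D1:**
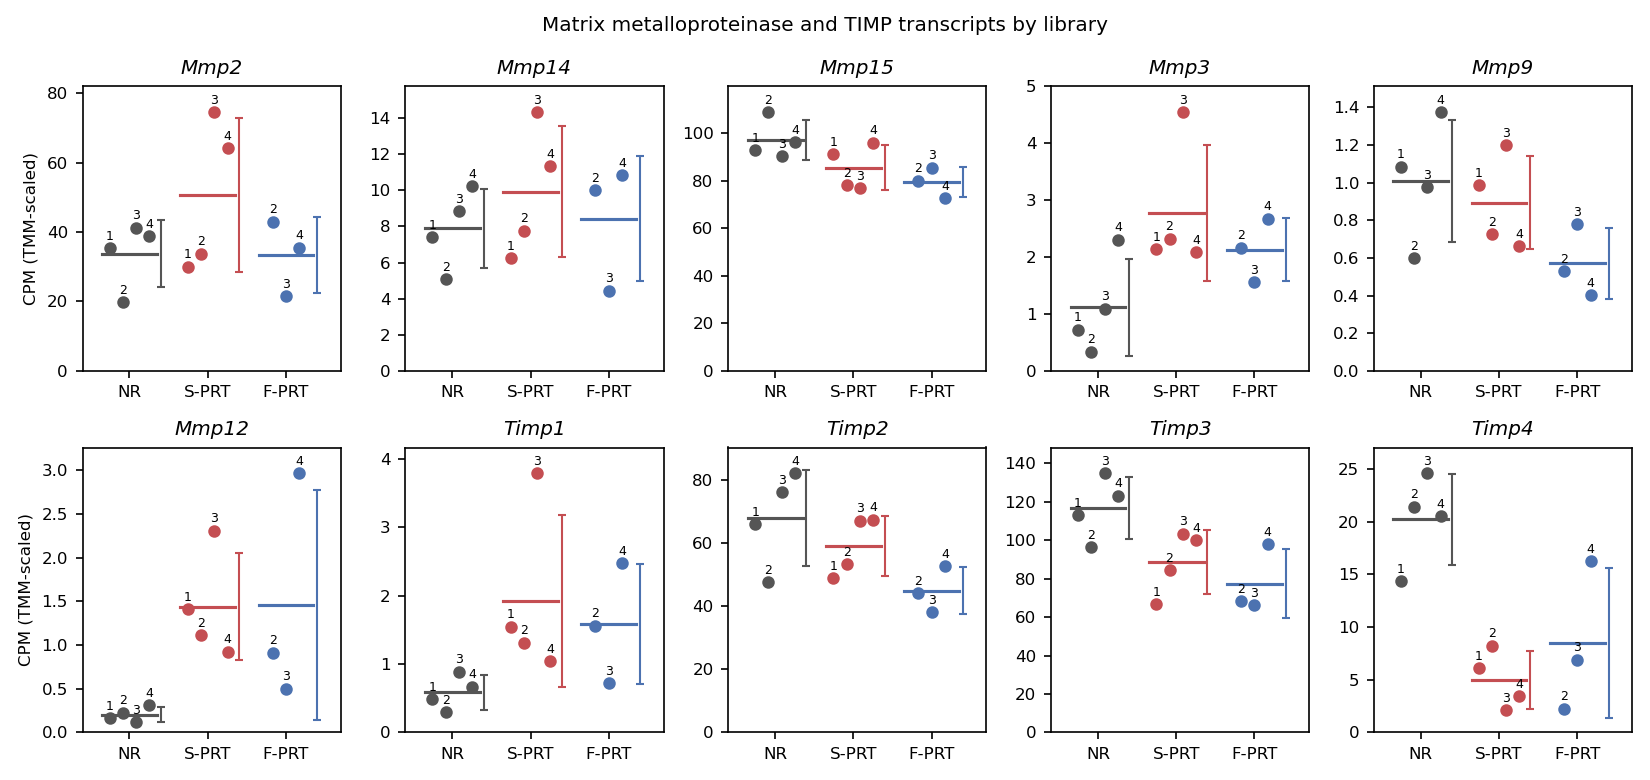
CPM (TMM-scaled, linear axis from 0) of each of the 10 genes in every library, by group (NR, S-PRT, F-PRT); points carry the replicate number, horizontal lines are group means and bars are ± 1 SD. All 4 S-PRT libraries lie above all 4 NR libraries for Mmp12 and Timp1 and below them for Timp4.

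Mmp12 (ENSMUSG00000049723.15), the macrophage metalloelastase, rose in both irradiated groups and was the only one of the 10 called in both. It was barely present in NR, at 0.161, 0.224, 0.119 and 0.311 CPM in replicates 1 to 4 (4, 6, 4 and 14 counts). In S-PRT it was at 1.41, 1.12, 2.31 and 0.924 CPM in the same order (33, 23, 75 and 39 counts), and in F-PRT at 0.912, 0.5 and 2.96 CPM in replicates 2 to 4 (24, 9 and 103 counts). Every irradiated library was above every NR library, with F-PRT 4 highest and F-PRT 3 lowest among them. On the log2 scale the change was 2.76 ± 0.56 (SE, 6.76-fold, edgeR adjusted p = 0.037) for S-PRT and 2.83 ± 0.58 (7.11-fold, adjusted p = 0.011) for F-PRT. Both comparisons use the same NR libraries.

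Whether the rise of Mmp12 passed the threshold depended on single libraries. In S-PRT against NR it was above the threshold (adjusted p) without NR 1 (0.11), NR 2 (0.10), NR 3 (0.10), NR 4 (0.092), S-PRT 1 (0.056) or S-PRT 3 (0.12), with log2 fold changes of 2.41 to 3.09 over all 11 fits that leave out 1 library. In F-PRT against NR, of these 11 fits only that without F-PRT 4 lifted it above the threshold (log2 fold change 1.76, adjusted p = 0.053). It was also not called there by limma or with the replicate number as a block, with or without the length trend. With the length trend removed, the S-PRT value was 2.71 (adjusted p = 0.056) and the F-PRT value 2.63 (adjusted p = 0.030). What the replicate numbers stand for is not in the labels. With the number as a block in S-PRT against NR, Mmp12 stood at 2.68 (adjusted p = 0.0064). It stood at 2.64 (adjusted p = 0.011) with the length trend removed in the same fit.

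Markers of recruited monocytes were, as a sum, higher in both irradiated groups, as Mmp12 was. The summed level of 7 such genes (Ccr2, Ly6c2, Lgals3, Plac8, Chil3, Spp1, Gpnmb) was 3.25 to 6.49 CPM in NR, 12.1 to 26.2 after S-PRT and 11.6 to 18.7 after F-PRT. Of the 5 tested, Ccr2 and Lgals3 rose in both groups, and 1 had a negative log2 fold change in F-PRT. Over all genes tested, 0.872% were called higher in S-PRT and 10.8% in F-PRT. By library the orders differed: within F-PRT, Mmp12 was highest in F-PRT 4 and the marker sum in F-PRT 2. Ccr2 rose by 2.33 ± 0.25 in S-PRT and 2.18 ± 0.27 in F-PRT on the log2 scale. The 9 macrophage markers summed to 139 to 237 CPM in NR, 230 to 460 after S-PRT and 191 to 359 after F-PRT, with C1qa and C1qb higher in F-PRT. The part of these cells in the Mmp12 result was not tested, and in bulk samples a change in the number of cells of a type and a change in RNA per cell cannot be told apart.

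Timp1 (ENSMUSG00000001131.12), the inducible secreted inhibitor that binds proMMP9 and many active MMPs, had non-overlapping libraries in S-PRT against NR but did not pass the test. It was at 0.482, 0.299, 0.889 and 0.666 CPM in NR 1 to 4 and at 1.54, 1.31, 3.78 and 1.04 CPM in S-PRT 1 to 4. Its F-PRT levels (2 to 4 in order) were 1.56, 0.723 and 2.47 CPM. S-PRT 3 was highest, and F-PRT 3 lay below NR 3, so the F-PRT group overlapped with NR. The fitted log2 change was 1.69 ± 0.48 (adjusted p = 0.10) in S-PRT and 1.45 ± 0.52 (adjusted p = 0.065) in F-PRT. With the replicate number as a block in S-PRT against NR, Timp1 rose (1.59, adjusted p = 0.013, and 0.028 with the length trend also removed), and it did so in the F-PRT comparison without F-PRT 3 (1.76, adjusted p = 0.027) or without S-PRT 3 (1.38, adjusted p = 0.038). With the length trend removed, its F-PRT value was 1.04 (adjusted p = 0.24). Timp1 is the shortest of the 10, at percentile 7.23 of length among the genes tested. The recruited monocyte marker sum given above was also higher in both irradiated groups, while the ranges of the macrophage sum overlapped with NR. Their part in the Timp1 values was not tested.

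Timp4 (ENSMUSG00000030317.9), an inhibitor known for its high expression in the heart, was lower in S-PRT than in any NR library. It was at 14.4, 21.4, 24.6 and 20.5 CPM in NR 1 to 4 and at 6.13, 8.24, 2.12 and 3.44 CPM in S-PRT 1 to 4. Its F-PRT levels (2 to 4 in order) were 2.24, 6.90 and 16.3 CPM, so F-PRT 4 overlapped with NR and the other F-PRT libraries did not. The change from NR on the log2 scale was -2.06 ± 0.49 (SE, 4.18-fold lower, adjusted p = 0.061) in S-PRT and -1.23 ± 0.52 (adjusted p = 0.11) in F-PRT. Timp4 fell in S-PRT against NR with the number as a block (-2.14, adjusted p = 0.0047, and 0.0092 with the length trend also removed), without F-PRT 2 (-2.07, adjusted p = 0.024) and without F-PRT 4 (-2.07, adjusted p = 0.020), which enter the common fit. Without F-PRT 4 it also fell in F-PRT (-2.20, adjusted p = 0.027). The 8 endothelial markers summed to 421 to 612 CPM in NR, 291 to 409 after S-PRT and 289 to 524 after F-PRT, with Flt1 and Tek lower in both and Egfl7 higher in F-PRT (0.73 ± 0.16, adjusted p = 0.013), and their part in the Timp4 values was not tested. Of all genes tested, 0.419% were called lower in S-PRT and 8.67% in F-PRT, where 10.8% were called higher.

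Timp2 (ENSMUSG00000017466.10), which inhibits MMP2 and also helps Mmp14 activate proMMP2, fell in F-PRT. It was at 65.8, 47.6, 76.1 and 82.0 CPM in NR 1 to 4, at 48.8, 53.1, 67.0 and 67.3 CPM in S-PRT 1 to 4, and at 44.0, 38.0 and 52.7 CPM in F-PRT 2 to 4. NR 2 lay within the F-PRT range, so the groups overlapped. The log2 fold change was -0.20 ± 0.17 (adjusted p = 0.56) in S-PRT and -0.59 ± 0.18 (adjusted p = 0.038) in F-PRT, a 1.51-fold decrease.

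Timp3 (ENSMUSG00000020044.14), the matrix-bound inhibitor that also blocks several ADAM enzymes, fell in F-PRT as well. It was at 113, 96.4, 135 and 123 CPM in NR 1 to 4, at 66.7, 84.4, 103 and 99.9 CPM in S-PRT 1 to 4 and at 68.1, 66.1 and 98.1 CPM in F-PRT 2 to 4. F-PRT 4 lay above NR 2, so the groups overlapped. On the log2 scale the change was -0.40 ± 0.16 (adjusted p = 0.21) in S-PRT, where it fell with the number as a block (-0.41, adjusted p = 0.026, and 0.084 with the length trend also removed), and -0.59 ± 0.18 (adjusted p = 0.035) in F-PRT. Its expected counts were whole in 0 of 11 libraries, to within 1e-09 counts, which means that some reads were split with another gene and its value is uncertain.

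Both F-PRT calls were lost in several fits. Timp2 was above the threshold (adjusted p) without NR 1 (0.071), NR 3 (0.088), NR 4 (0.096), F-PRT 2 (0.095) or F-PRT 3 (0.094), and Timp3 without NR 1 (0.066), NR 3 (0.085), NR 4 (0.075), F-PRT 2 (0.11) or F-PRT 3 (0.086). With the length trend removed, Timp2 stood at -0.52 (adjusted p = 0.11) and Timp3 at -0.30 (adjusted p = 0.37). The 10 fibroblast markers summed to 930 to 1905 CPM in NR, 1221 to 1466 after S-PRT and 564 to 1315 after F-PRT, with Pdgfra and Gsn called lower in F-PRT, against 8.67% of all genes tested. Their part in the Timp2 and Timp3 values was not tested.

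The 3 TIMP genes other than Timp2 lie inside synapsin genes on the opposite strand: Timp1 in Syn1, Timp4 in Syn2 and Timp3 in Syn3. In the GENCODE annotation Timp1 shared 0 of its 888 exon bases with exons of its host, Timp4 shared 90 of 5894 and Timp3 shared 1733 of 8144. Strand use in the counting is not given in the sources at hand, and the levels of Timp3 and Syn3 cannot be fully separated. Syn3 stood at 1.08 to 1.96 CPM in 10 libraries and at 6.50 CPM in F-PRT 4. Syn2 stood at 0.686 to 2.13 CPM, below Timp4 in each of the 11 libraries.

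**Figure D2:**
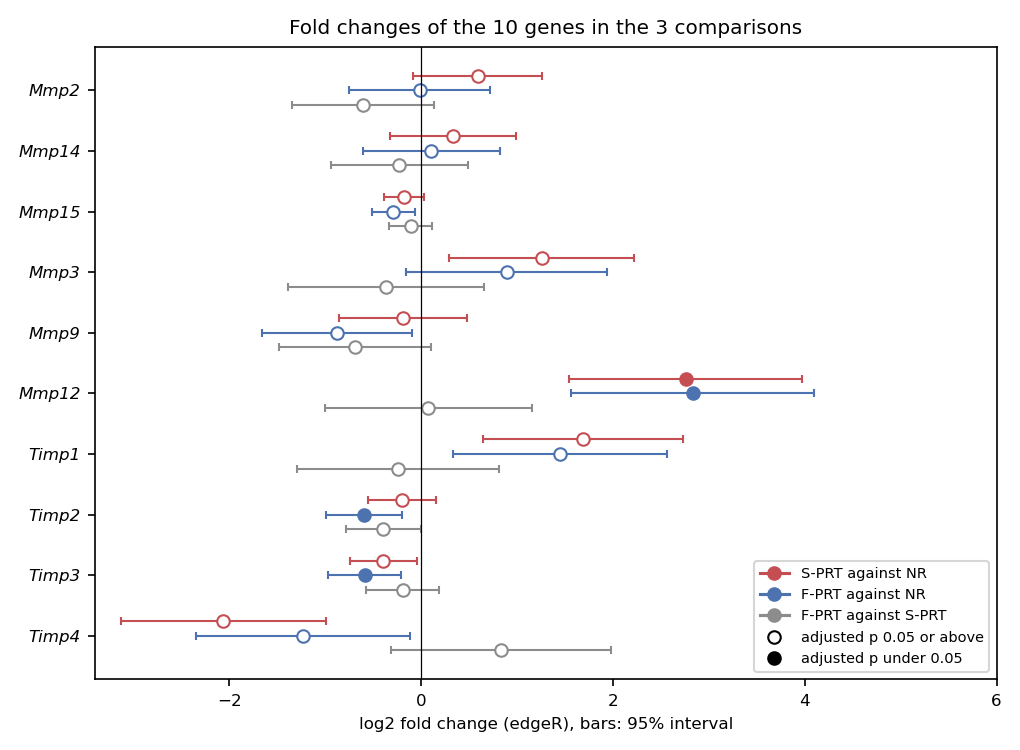
Log2 fold changes (edgeR) of the 10 genes with 95% intervals in the 3 comparisons; filled points have an adjusted p under 0.05. Only Mmp12 is filled for both irradiated groups, and Timp2 and Timp3 are filled for F-PRT against NR.

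Among the gelatinases, stromelysin and membrane-type enzymes no member passed the test in either irradiated group. Mmp3 (ENSMUSG00000043613.9, stromelysin-1, which degrades proteoglycans and laminin and activates other proMMPs) was at 0.724, 0.336, 1.10 and 2.31 CPM in NR, at 2.14, 2.33, 4.55 and 2.08 CPM in S-PRT, and at 2.17, 1.56 and 2.68 CPM in F-PRT. NR 4 lay within the irradiated range. The fitted log2 change was 1.26 ± 0.45 (adjusted p = 0.16) in S-PRT and 0.89 ± 0.48 (adjusted p = 0.20) in F-PRT. Without NR 4 the F-PRT value was 1.56 (adjusted p = 0.042).

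Mmp2 and Mmp14 varied together within groups. Mmp2 (ENSMUSG00000031740.9, gelatinase A) was at 35.4, 19.7, 41.2 and 38.8 CPM in NR, at 30.0, 33.8, 74.6 and 64.2 CPM in S-PRT, and at 42.9, 21.5 and 35.5 CPM in F-PRT. Mmp14 (ENSMUSG00000000957.12, membrane-type 1 MMP, an activator of proMMP2) was at 7.40, 5.08, 8.86 and 10.2 CPM in NR, at 6.26, 7.76, 14.3 and 11.3 CPM in S-PRT and at 9.99, 4.45 and 10.8 CPM in F-PRT. S-PRT 3 and 4 were high for both, NR 2 and F-PRT 3 were low for both, and both irradiated groups overlapped with NR. The log2 fold changes were 0.59 ± 0.31 and 0.33 ± 0.30 in S-PRT (adjusted p = 0.34 and 0.60) and -0.02 ± 0.34 and 0.11 ± 0.33 in F-PRT (adjusted p = 0.98 and 0.84).

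Mmp15 (ENSMUSG00000031790.9, membrane-type 2 MMP) was lower in each F-PRT library than in any NR library without passing the test. It was at 93.0, 109, 90.3 and 96.1 CPM in NR, at 91.1, 78.1, 76.8 and 95.9 CPM in S-PRT and at 80.0, 85.5 and 72.8 CPM in F-PRT. The S-PRT group overlapped with NR. The change from NR on the log2 scale was -0.18 ± 0.10 (adjusted p = 0.33) in S-PRT and -0.29 ± 0.10 (adjusted p = 0.066) in F-PRT. It fell in F-PRT without F-PRT 3 (-0.34, adjusted p = 0.049), and with the length trend removed its F-PRT value was 0.00097.

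Mmp9 (ENSMUSG00000017737.3, gelatinase B, carried in neutrophil granules) was at 1.09, 0.598, 0.978 and 1.38 CPM in NR, at 0.986, 0.727, 1.20 and 0.663 CPM in S-PRT and at 0.532, 0.779 and 0.403 CPM in F-PRT. The F-PRT libraries had 14 counts each, and F-PRT 3 lay above NR 2, so the groups overlapped. The log2 fold change was -0.19 ± 0.31 (adjusted p = 0.80) in S-PRT and -0.88 ± 0.36 (adjusted p = 0.10) in F-PRT. The 8 neutrophil markers, of which 3 were tested, summed to 1.81 to 3.13 CPM in NR, 2.96 to 10.1 after S-PRT and 2.45 to 10.3 after F-PRT, and their part in the Mmp9 values was not tested.

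**Figure D3:**
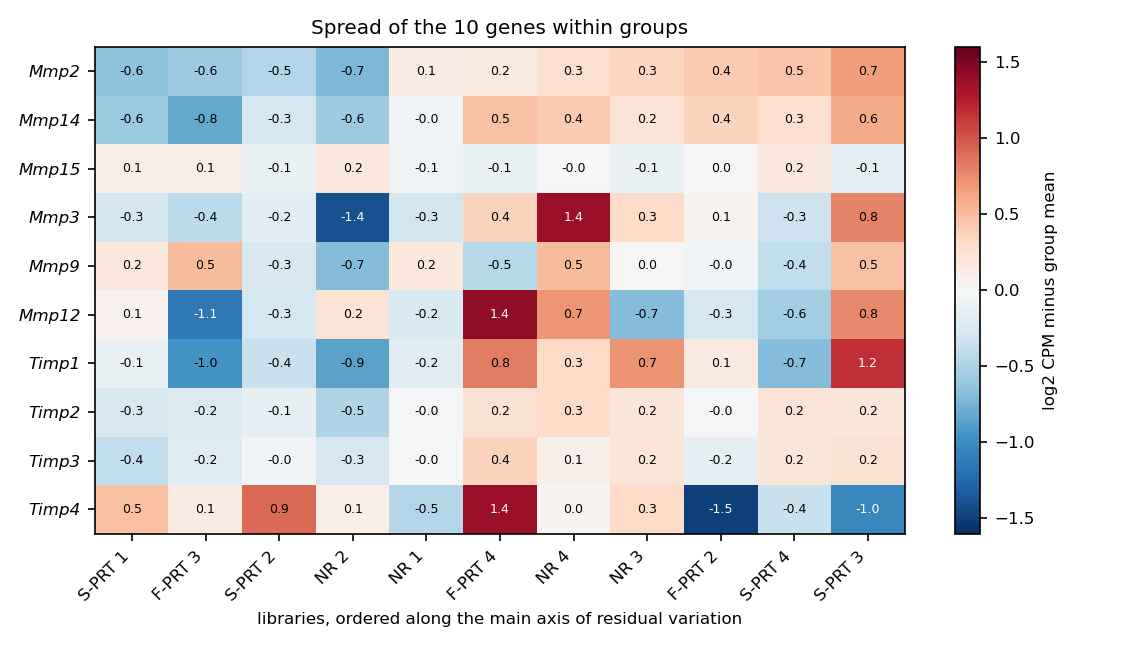
Log2 CPM of each of the 10 genes minus its group mean (colour and number) in each library. Libraries are ordered along the main axis of residual variation over the genes tested other than these 10. Mmp2 and Mmp14 are low in the libraries at the left (S-PRT 1, F-PRT 3, S-PRT 2, NR 2) and high in those at the right (S-PRT 3, S-PRT 4, F-PRT 2), while Timp4 has its lowest value in F-PRT 2.

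That axis held 29.5% of the variance left after group means were removed, and put NR 1, NR 2, S-PRT 1, S-PRT 2 and F-PRT 3 on one side. Over the 11 libraries with group means removed, the correlation with it was 0.97 for Mmp2, 0.93 for Mmp14, 0.83 for Timp2, 0.74 for Timp3, 0.63 for Mmp3 and for Timp1, 0.28 for Mmp12, 0.11 for Mmp9, -0.33 for Mmp15 and -0.49 for Timp4. The members did not enter the axis, except that Mmp2 set its sign, and these values are a description, with no test. The genes whose log2 CPM was most like each member over the 11 libraries (Pearson r) were Apbb1ip (0.97) for Mmp2, Emp1 (0.97) for Mmp14, Alcam (0.93) for Mmp3, Magee1 (0.96) for Mmp9 and Cstb (0.95) for Mmp12. For Mmp15 it was Cdh13 (0.95), for Timp1 Ppib (0.96), for Timp2 Prelp (0.99), for Timp3 Lbr (0.98) and for Timp4 Aqp1 (0.97). Each was picked as the highest r among the tested genes, so a high r follows from the choice and was not tested. These r include differences between groups. With group means removed they ranged from 0.85 (Cstb) to 0.99 (Emp1).

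Directly between the irradiated groups no member was called in F-PRT against S-PRT, nor was any gene (0 of 14556, with 2315 or 15.9% at an unadjusted p under 0.05, and 168 by DESeq2). The largest difference was that of Timp4, at 0.83 ± 0.53 with a 95% interval of -0.31 to 1.98, and without F-PRT 4 it was -0.13. Timp2 stood at -0.39 ± 0.18 (interval -0.79 to -0.0021, unadjusted p = 0.049). Mmp12 differed by 0.07 ± 0.50 (interval -1.01 to 1.16) and Timp1 by -0.24 ± 0.49 (interval -1.30 to 0.81). A missing call does not show that the modes act alike.

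**Figure D4:**
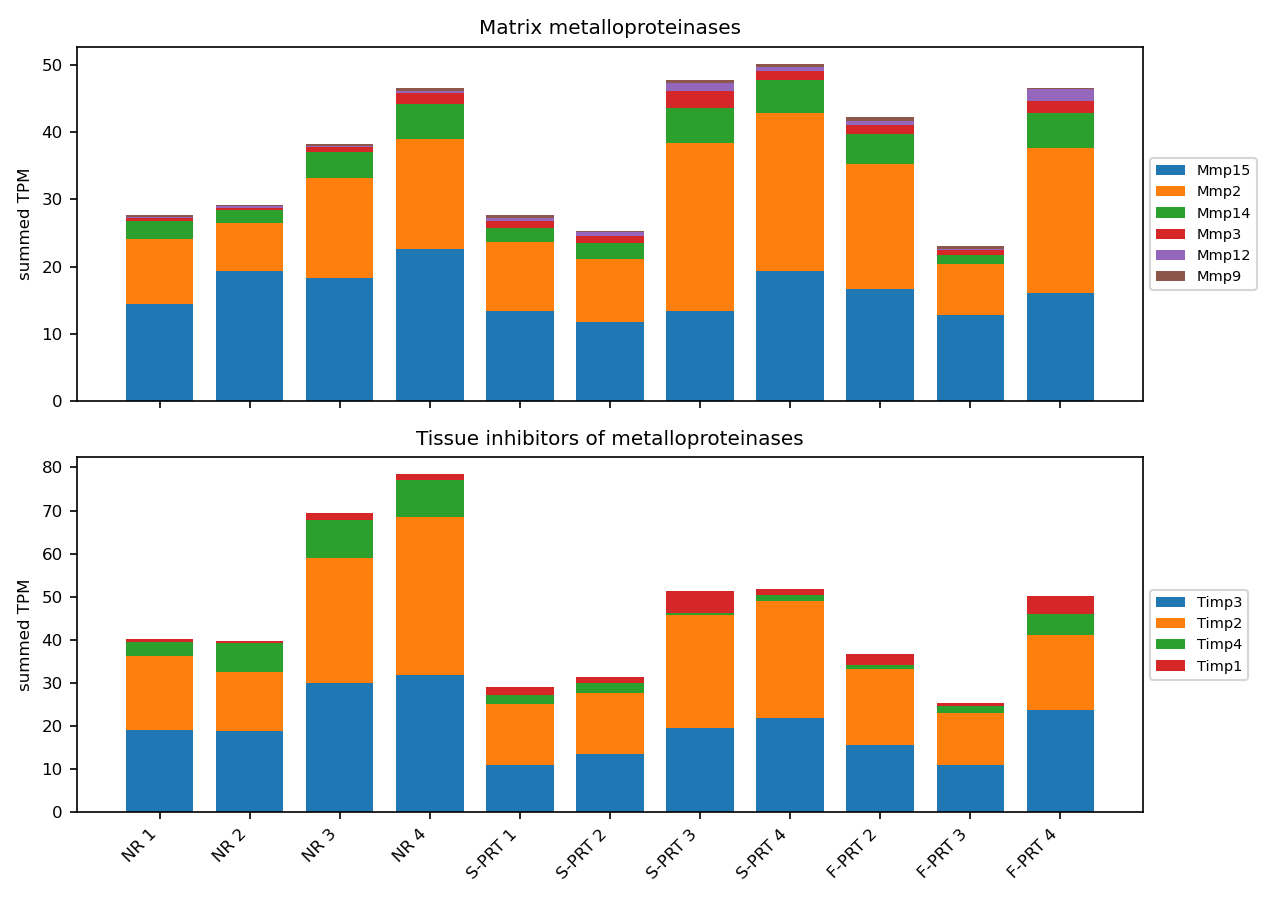
Summed TPM of the 6 MMP genes (upper panel) and of the 4 TIMP genes (lower panel) in each library, stacked by gene. The TIMP sum per MMP sum is higher in each of the 4 NR libraries than in any of the 7 irradiated libraries, and in F-PRT 2 the TIMP sum is below the MMP sum.

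Summed over members on the TPM scale, the TIMP level per MMP level was 1.45, 1.36, 1.81 and 1.68 for NR 1 to 4, 1.05, 1.24, 1.08 and 1.03 for S-PRT 1 to 4 and 0.867, 1.10 and 1.08 for F-PRT 2 to 4. Every irradiated library was below every NR library, and this is a description over chosen genes, with no test. The share of single inhibitors in the TIMP sum is given likewise without a test. Timp1 took 1.53% ± 0.407 of the TIMP sum in NR, 5.96% ± 2.86 after S-PRT and 6.09% ± 2.45 after F-PRT, and Timp4 took 12.3% ± 3.81, 4.44% ± 3.15 and 6.34% ± 3.62 (SD, n = 4, 4 and 3). Most of the sum was Timp3 (44.7% ± 3.47, 40.2% ± 2.89 and 44.1% ± 2.79) and Timp2 (41.5% ± 5.16, 49.4% ± 3.10 and 43.4% ± 7.84). The uncertainty of the Timp3 value, from reads split with another gene, therefore also enters the TIMP sum and the ratio. TPM of Mmp12 rests on a deposited transcript length that varied from 739 to 2060 bases between libraries, an estimate from few reads in NR.

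Of the other MMP genes, 6 of 17 passed the count filter. Mmp28 (epilysin) fell in both irradiated groups, from 2.29 ± 0.371 CPM in NR to 1.11 ± 0.25 in S-PRT (log2 fold change -1.06 ± 0.22, adjusted p = 0.037) and 1.02 ± 0.174 in F-PRT (-1.16 ± 0.24, adjusted p = 0.011). All irradiated libraries were below all NR libraries. The S-PRT call was lost without NR 1, NR 2, NR 3, NR 4, S-PRT 1, S-PRT 3 or S-PRT 4 (adjusted p of 0.11, 0.090, 0.083, 0.12, 0.070, 0.12 and 0.076), and the F-PRT call was kept in all 11 such fits. In other settings the F-PRT call was lost with no TMM (adjusted p = 0.075), by limma (0.10) and with the replicate block (0.11). It was also lost with the block and the length trend removed (0.25). The S-PRT value was -0.99 with the length trend removed (adjusted p = 0.075). Mmp11, Mmp13, Mmp17, Mmp19 and Mmp23 did not pass the test.

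Among 12 genes that regulate MMPs outside the TIMP family, 9 were tested, of which 1 fell in S-PRT, and 1 rose and 3 fell in F-PRT. With the replicate block 2 rose (Lcn2, Pcolce) and 3 fell (Reck, Thbs2, Spock2) in S-PRT. Over all genes tested, 1.29% were called in S-PRT, 19.5% in F-PRT and 9.74% in S-PRT with the block. Spock2 (testican-2, an extracellular proteoglycan) fell from 4.87 ± 0.828 CPM in NR to 1.85 ± 0.121 in S-PRT and 1.95 ± 0.3 in F-PRT (log2 fold change -1.40 ± 0.16 and -1.31 ± 0.18, adjusted p = 0.0032 and 0.0035). It was called in neither group by limma (adjusted p = 0.14 and 0.094), nor in F-PRT with the block and the length trend removed (0.21). In F-PRT Thbs2 (thrombospondin-2, which takes part in MMP2 clearance) fell (-1.34 ± 0.26, adjusted p = 0.0096) and Reck, a membrane-anchored MMP inhibitor, fell as well (-1.20 ± 0.29, adjusted p = 0.017, and 0.056 without F-PRT 2). Lcn2, which binds MMP9, rose by 1.65 ± 0.36 in F-PRT (adjusted p = 0.013). With the length trend removed, Thbs2, Reck and Lcn2 did not pass the test (adjusted p = 0.076, 0.094 and 0.070). With the replicate block in F-PRT, Spock2, Reck and Lcn2 did not pass it (adjusted p = 0.071, 0.069 and 0.12).

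The plasminogen system and the proprotein convertases, which activate proMMPs, were covered by 12 genes, 10 of them tested, of which 1 rose in S-PRT and 2 rose in F-PRT. With the replicate block 3 rose (Plau, Plaur, Plgrkt) in S-PRT, and Pcsk6 fell. Of all genes tested, 0.872% were called higher in S-PRT and 10.8% in F-PRT, and 9.74% were called in either direction with the block. Plaur, the urokinase receptor, rose from 0.875 ± 0.143 CPM in NR to 2.74 ± 0.966 in S-PRT (1.66 ± 0.34, adjusted p = 0.038) and 2.59 ± 1.40 in F-PRT (1.59 ± 0.37, adjusted p = 0.015). The S-PRT call was lost without NR 1, NR 2, NR 3, NR 4, S-PRT 3 or S-PRT 4 (adjusted p of 0.10, 0.11, 0.098, 0.11, 0.13 and 0.076) and the F-PRT call without F-PRT 4 (1.10, adjusted p = 0.075). Pcsk6, a proprotein convertase, fell in F-PRT (-1.29 ± 0.30, adjusted p = 0.015). With the length trend removed, Plaur stood at adjusted p = 0.066 in S-PRT and 0.055 in F-PRT, and Pcsk6 at 0.082. Plgrkt, a plasminogen receptor, rose in F-PRT (0.38 ± 0.09, adjusted p = 0.017, and 0.056 without F-PRT 2). With the replicate block in F-PRT, Plaur, Pcsk6 and Plgrkt did not pass the test (adjusted p = 0.12, 0.065 and 0.16).

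Of 13 cathepsin and cystatin genes, 0 were called in S-PRT and 3 rose in F-PRT. The shares over all genes tested were 1.29% called in S-PRT and 10.8% called higher in F-PRT. With the replicate block 6 rose in S-PRT (Ctsa, Ctsb, Ctss, Ctsz, Cst3 and Cstb), against 9.74% of all genes called in either direction. Cst3, the secreted inhibitor cystatin C, rose by 0.56 ± 0.13 in F-PRT on the log2 scale (adjusted p = 0.013). Once the length trend was removed, Cst3 stood at 0.19 (adjusted p = 0.28). Ctsd, the lysosomal protease cathepsin D, rose by 0.35 ± 0.09 (adjusted p = 0.022), and lost its call without NR 1 (0.064), NR 2 (0.055) or F-PRT 2 (0.060). Cstb, the intracellular inhibitor cystatin B, rose by 0.56 ± 0.16 (adjusted p = 0.030), and lost its call without NR 1 (0.061), NR 2 (0.066), NR 3 (0.058), NR 4 (0.063) or F-PRT 4 (0.13). With the replicate block in F-PRT, Cst3, Ctsd and Cstb did not pass the test (adjusted p = 0.13, 0.28 and 0.16).

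Of 12 matrix substrate genes 0 were called in S-PRT and 1 in F-PRT, where Lamc1 (laminin gamma-1 chain) fell (-0.78 ± 0.18, adjusted p = 0.015, and 0.14 with the length trend removed). Among 20 cytokine and transcription factor genes known to induce MMPs, 16 were tested, of which 2 rose in S-PRT, and 1 rose and 1 fell in F-PRT. With the replicate block 5 of 14 rose (Il1b, Tgfb1, Csf1, Fos, Junb) and Ets1 fell in S-PRT. Beside both lists, the shares of all genes called were 1.29% in S-PRT, 19.5% in F-PRT and 9.74% in S-PRT with the block. Il1b rose in S-PRT from 0.273 ± 0.0669 to 1.20 ± 0.494 CPM (2.15 ± 0.35, adjusted p = 0.017), and lost its call without NR 1 (0.052), NR 3 (0.063), NR 4 (0.064) or S-PRT 3 (0.062). Csf1, a macrophage growth factor, rose in S-PRT (0.52 ± 0.11, adjusted p = 0.039), and lost its call without NR 1 (0.11), NR 2 (0.095), NR 3 (0.11), NR 4 (0.092), S-PRT 2 (0.057), S-PRT 3 (0.15) or S-PRT 4 (0.068). In F-PRT Tnf rose (1.82 ± 0.50, adjusted p = 0.027), and lost its call without NR 2 (0.054), NR 3 (0.052), NR 4 (0.056), F-PRT 2 (0.063) or F-PRT 4 (0.098). The transcription factor gene Ets1 fell there (-0.38 ± 0.11, adjusted p = 0.037), with the call lost without NR 1 (0.054), NR 2 (0.056), NR 3 (0.074), NR 4 (0.095), F-PRT 2 (0.10) or F-PRT 3 (0.088). With the replicate block in F-PRT, Lamc1, Tnf and Ets1 did not pass the test (adjusted p = 0.12, 0.13 and 0.13).

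Among related metalloproteinases, 0 of 9 ADAM genes tested were called in S-PRT and 2 fell in F-PRT. For all genes tested, the shares were 1.29% called in S-PRT and 8.67% called lower in F-PRT. Adam10, a membrane sheddase, stood at -0.30 ± 0.09 (adjusted p = 0.035), and lost its call without NR 1 (0.061), NR 2 (0.062), NR 3 (0.088), NR 4 (0.075), F-PRT 2 (0.069) or F-PRT 4 (0.094). Adam17, the TNF-converting sheddase that Timp3 inhibits, stood at -0.30 ± 0.07 (adjusted p = 0.018), and lost its call without NR 1 (0.051) or F-PRT 2 (0.056). Of 15 ADAMTS genes tested, 0 were called in S-PRT, where Adamts4 rose with the replicate block, and Adamts7 fell in F-PRT (-0.37 ± 0.11, adjusted p = 0.032). That call was lost without NR 1 (0.064), NR 2 (0.069), NR 4 (0.083), F-PRT 2 (0.11) or F-PRT 4 (0.087). In F-PRT none of Plgrkt, Ctsd, Cstb, Tnf, Ets1, Adam10, Adam17 and Adamts7 passed the test once the length trend was removed, with adjusted p from 0.055 (Ctsd) to 0.89 (Plgrkt). With the replicate block in F-PRT, Adam10, Adam17 and Adamts7 did not pass it either (adjusted p = 0.17, 0.19 and 0.20).

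**Figure D5:**
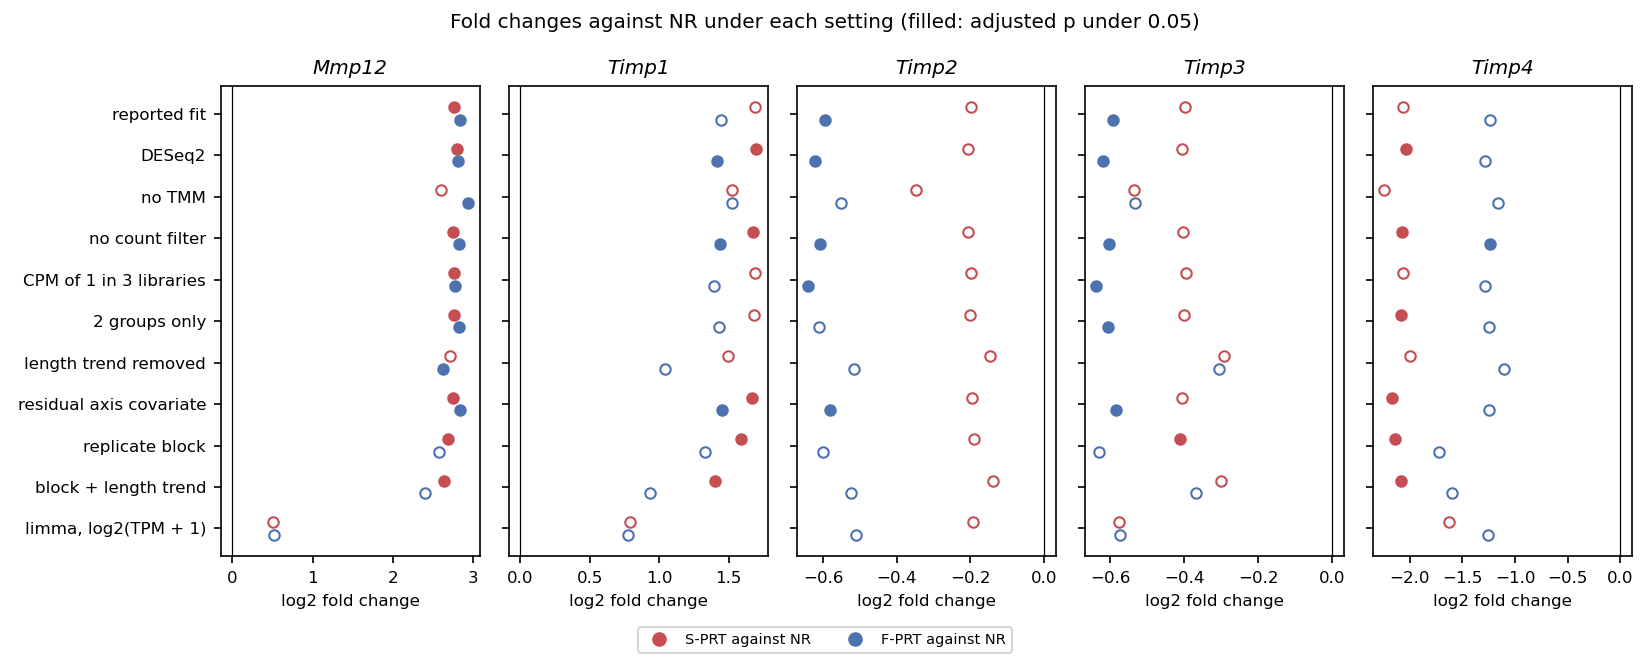
Log2 fold changes against NR of Mmp12, Timp1, Timp2, Timp3 and Timp4 (panels) under the reported fit and 10 other settings; filled points have an adjusted p under 0.05. The direction of these 5 genes is the same in each setting shown, while the calls differ.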

How the data were processed

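The data are 11 bulk RNA-seq libraries of mouse cardiac apex. Per the labels' protocols, total RNA was made into poly(A)-selected directional libraries. The tools listed in the submitters' processing notes are FastQC, cutadapt, STAR, RSEM and edgeR. They give no version, and name 2 builds, GRCm39 and mm10, without saying which applies. The deposited values, per the file headers, are expected counts and TPM per gene, with transcript lengths in bases as other columns. RSEM divides ambiguous reads between genes, so expected counts need not be whole.

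Expected counts were rounded, filtered with filterByExpr (minimum count 10, minimum total 15), scaled by TMM and fitted over all 11 libraries with edgeR 4.0.16 (R 4.3.3, quasi-likelihood, 8 residual degrees of freedom). A gene was called at a Benjamini-Hochberg adjusted p under 0.05 over 14556 genes, and adjusted p values come from this fit unless another tool is named. Same-numbered NR and S-PRT libraries had deviations correlated at 0.113 to 0.219 in all 4 pairs, above the limit of 0.1. Of the 12 pairs with different numbers, 3 were also above it, the highest at 0.30. What a number stands for is not in the labels, and these correlations alone do not establish a pairing. The edgeR fits against NR were tested on simulated data.

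Alternatives were DESeq2 1.42.0, limma 3.58.1 on log2(TPM + 1), no TMM, other filters, 2 groups only, a length trend removed, the replicate block, the main axis of residual variation as a covariate (chosen after seeing the data) and leaving out each library. The members and lists were chosen with earlier results of these data known. A gene of these lists is not reported here. Named genes are the 10 members, the 3 synapsin hosts, the irradiation check genes, up to 4 called genes of each list by p, and the genes most like each member. Coordinates come from RefSeq windows only. Intervals cover the spread between libraries.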

Additional observations from a re-analysis of the deposited data

Results flagged for a closer look

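Of 20 groups of 4 libraries examined for a single distant value (10 genes in NR and in S-PRT), chance flags about 1 in 20. Mmp3 in S-PRT replicate 3 was the only one, with a gap to its nearest neighbour of 0.86 of the range of log2 CPM in the group. Its level was 4.55 CPM, against 2.08 to 2.33 CPM in the other S-PRT libraries. The same library was highest in S-PRT for Mmp2, Mmp9, Mmp12, Mmp14, Timp1 and Timp3, and lowest for Mmp15 and Timp4.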

How the results depend on the processing

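Scaling by library size alone moved the median log2 fold change of all genes by -0.14 in S-PRT against NR and 0.19 in F-PRT against S-PRT, and TPM by -0.14 and 0.12. As reported, 188 genes (127 higher and 61 lower) were called for S-PRT, 2841 for F-PRT and 0 between the irradiated groups. S-PRT against NR gave 14 genes (11 higher, 3 lower) with no TMM, 605 with no count filter, 43 with the length trend removed, 697 by DESeq2, 2 by limma on TPM, 557 with 2 groups only, 1371 with the replicate block, 816 with the block and the length trend removed and 1002 with the residual axis. F-PRT against NR gave 134 with no TMM, 532 with the length trend removed, 71 by limma, 29 with the replicate block and 9 with the block and the length trend removed. F-PRT against S-PRT gave 71 with no count filter, 3 with a CPM of 1 in 3 libraries, 168 by DESeq2, 9 by limma and 11 with the residual axis. Leaving out 1 library gave 26 to 444, 1382 to 3784 and 0 to 103.

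Of the 10 members, 1 was called in S-PRT against NR as reported, 0 with no TMM, with the length trend removed and by limma, 2 with 2 groups only, 3 by DESeq2 and with the block and the length trend removed, and 4 with no count filter, with the replicate block and with the residual axis. In F-PRT against NR the 3 became 1 with no TMM or with the length trend removed, 0 by limma and with the block, also with the length trend removed, and 5 with no count filter, by DESeq2 and with the residual axis. Leaving out 1 library gave 0 to 2 and 1 to 4, and 0 in F-PRT against S-PRT. Same-numbered F-PRT libraries correlated at -0.21 to 0.16 with NR, where 1 of 3 pairs was above 0.1, and at -0.25 to -0.15 with S-PRT. The labels do not say what a number stands for.

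Signs changed in members that were not called. In F-PRT against NR, Mmp2 stood at 0.046 with no TMM, 0.029 with the length trend removed, 0.33 by limma and 0.048 with the block and the length trend removed, Mmp9 at 0.017 by limma and Mmp15 at 0.00097 with the length trend removed. In F-PRT against S-PRT, Mmp15 stood at 0.063 with no TMM, 0.064 with the length trend removed, 0.074 by limma and 0.12 with the block and the length trend removed, Timp3 at 0.0027 with no TMM and 0.0023 by limma, and Mmp9 at 0.024 by limma. There Mmp12 stood at -0.082 with the length trend removed, -0.14 with the block and -0.26 with both. Leaving out 1 library gave ranges across 0 in F-PRT against NR for Mmp2 (-0.24 to 0.21) and Mmp14 (-0.11 to 0.39), in S-PRT against NR for Mmp9 (-0.38 to 0.0094), and in F-PRT against S-PRT for Mmp12 (-0.99 to 0.44), Mmp14 (-0.45 to 0.052), Timp1 (-0.72 to 0.28) and Timp4 (-0.13 to 1.29). Lamc1 stood at 0.083 by limma in F-PRT against NR. The cause of these changes was not tested. Mmp12 rests on 4 to 14 counts per NR library, which limits its fold.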
